A study of Mus musculus with 28 samples.

Results

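The 10 genes described here are histone deacetylases and MEF2 transcription factors: the class I deacetylases Hdac1, Hdac2 and Hdac3, the class IIa deacetylases Hdac4, Hdac5, Hdac7 and Hdac9, and the factors Mef2a, Mef2c and Mef2d. They were taken by symbol from the 55450 genes of the RNA table, and all 10 were among the 16415 genes with a mean of at least 0.1 TPM (a level per transcript length, relative to all transcripts of the library) that were tested. RNA was measured in C10 cells, a mouse Pre-B line derived from HAFTL cells, in 3 libraries at each of 0h, 1h, 12h and 48h. All samples carried the CEBPalpha-ER transgene, a fusion of rat C/EBPα with the estrogen receptor that enters the nucleus on β-estradiol. The 0h cells were uninduced, and the 1h, 12h and 48h cells had been given 100 nM β-estradiol, 10 nM IL-3 and CSF-1. Promoter Capture Hi-C (PCHi-C, which lists the restriction fragments found in contact with captured promoter fragments) was given as 1 list per time point, each pooled from 2 replicates. A single line with a transgene is the model here, and every induced group also received both cytokines, so the effects of C/EBPα and of the cytokines cannot be told apart.

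Histone deacetylases remove acetyl groups from histone tails. Class I enzymes work as catalytic subunits of the NuRD, SIN3, CoREST and NCoR corepressor complexes, whereas class IIa enzymes have little catalytic activity of their own and bind MEF2 factors on DNA, where they bring in corepressors until kinases phosphorylate them and 14-3-3 proteins carry them out of the nucleus. In B cell progenitors Hdac7 is known as a partner of Mef2c that keeps genes of other lineages silent, and Mef2c, Mef2a and Mef2d are used in both lymphoid and myeloid cells.

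Across the time course the Hdac7 level dropped by the first hour and stayed low. On the deposited scale Mef2d followed the same order of time points, and Hdac2 and Hdac9 were among the members lowest at 48h. Mef2a was the member called higher at all 3 induced times on that scale. Mef2c, the most abundant member by mean at 0h, 1h and 48h, was not called against 0h at any time on the deposited values. Summed TPM of 9 Pre-B markers lay between 279 and 316 in uninduced libraries and between 24.7 and 35.5 after 48h, whereas 8 macrophage markers summed to between 1.66 and 1.97 TPM before induction and to between 686 and 819 TPM after 48h. Of the macrophage sum at 48h, Mmp12 alone held between 409 and 575 TPM, while Adgre1 was at most 0.29 TPM. The 7 macrophage markers that passed the filter were all called higher at 48h than at 0h. None of the 4 fibroblast markers was above 0 in any library, and T cell, erythroid and muscle markers summed to at most 0.93 TPM. These are bulk values, in which fewer cells of a type and less RNA per cell cannot be told apart.

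The deposited TPM are relative values. In each library the 20 most abundant genes held between 86.8% and 94.2% of all TPM, and the share left for the rest moved with time: the mean size factor by the median-of-ratios method, in which each library is divided by the median ratio of its genes to their mean level over libraries, moved from 0.930 before induction to 1.47 after 1h, 1.18 after 12h and 0.699 after 48h. Over all genes tested, the middle log2 fold change against 0h was 0.59 (1h), 0.34 (12h) and -0.18 (48h) on the deposited scale, and 0.02, 0.07 and 0.07 once the libraries were scaled in this way. Calls of the members are described on both scales. Fold changes are on the log2(TPM + 0.1) scale. TPM keep no record of the sequencing depth behind them. The paper refers to its supplement for the depth, which was not used here.

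Against 0h, 3 members were higher and 2 lower at 1h on the deposited scale, where 24.1% of all genes tested were higher and 1.41% lower. At 12h 3 members were higher and 3 lower, against 22.3% and 7.82% of all genes. At 48h 1 member was higher and 5 were lower, against 15.9% and 27.2%. Once scaled by median of ratios, the numbers were 0 higher and 2 lower at 1h (5.42% and 4.92% of all genes), 1 and 5 at 12h (16.0% and 14.5%), and 1 and 5 at 48h (24.5% and 22.0%). The 3 comparisons share the same 0h libraries. The members' median log2 fold change on the deposited scale was 0.26 (1h), -0.31 (12h) and -0.76 (48h), each below the median of all genes given above.

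**Figure D1:**
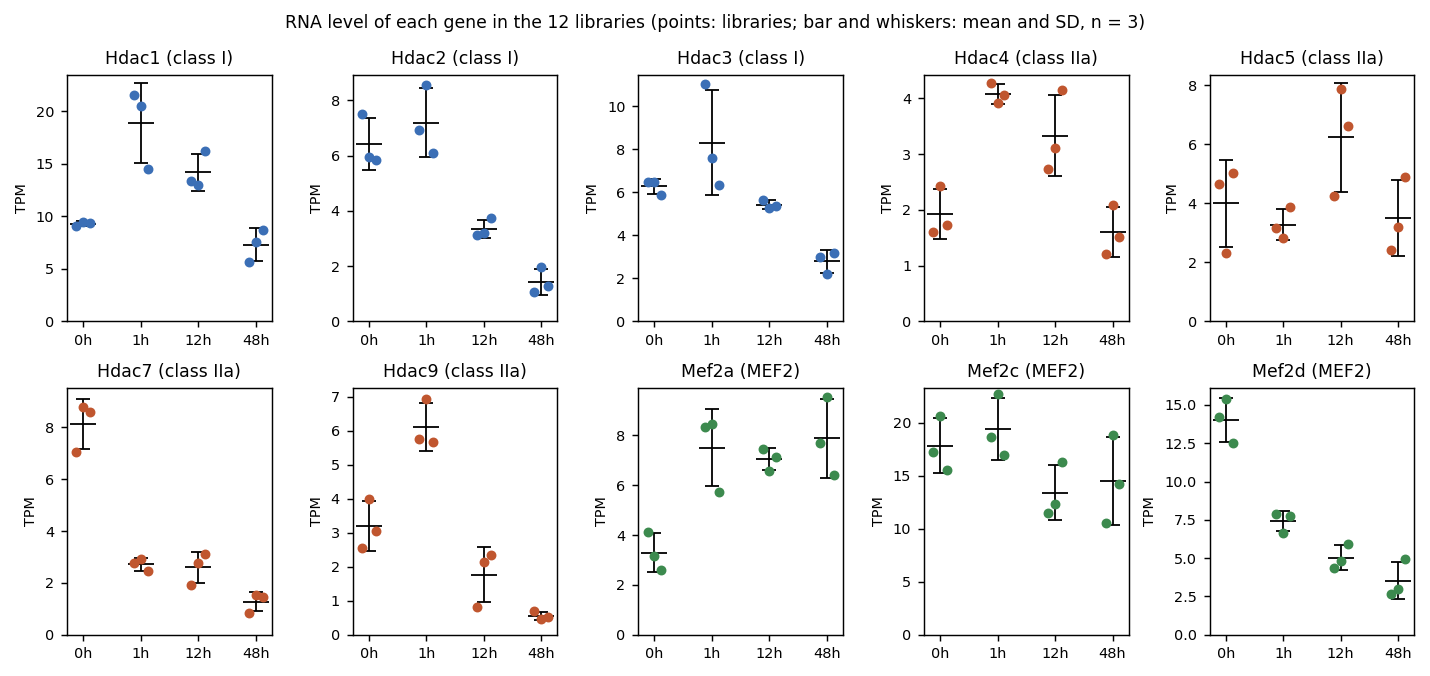
RNA level (TPM, vertical axes from 0) of each of the 10 genes in the 3 libraries at 0h, 1h, 12h and 48h; points are libraries and bars with whiskers are means with SD (n = 3). Hdac7 and Mef2d were highest in the 0h libraries, Mef2a lowest there, and Hdac1 and Hdac4 peaked at 1h on this deposited scale.

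Hdac7 (ENSMUSG00000022475; mm10 chr15:97792664-97844502, minus strand) encodes the class IIa deacetylase best known from lymphocytes. RefSeq's table held 4 promoter windows of Hdac7, of which 3 had no match to TTNNGNAA, the core of the C/EBP site searched on both strands. The window at the distal start and the window with the match are shown 5′ to 3′ on the gene's strand, from RefSeq's GRCm38 sequence. The first lies just before the most distant start, in the fragment captured by PCHi-C, and held 6 CpG and no match. The second lies within an intron of the longer transcripts, in no captured fragment listed, and held 21 CpG (median of all promoter windows 6) and 1 TTNNGNAA match, shown in capitals, 115 bases before the start. The adjoining window (chr15:97831496-97831745) held 25 CpG and the innermost one (chr15:97814864-97815113) 5 CpG, both without a match.
Hdac7 distal promoter, chr15:97844503-97844752 (minus strand): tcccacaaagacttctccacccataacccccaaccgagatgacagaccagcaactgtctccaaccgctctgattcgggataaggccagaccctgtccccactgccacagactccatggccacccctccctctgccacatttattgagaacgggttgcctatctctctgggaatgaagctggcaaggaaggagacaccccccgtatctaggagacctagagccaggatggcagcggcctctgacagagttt
Hdac7 inner promoter, chr15:97831768-97832017 (minus strand): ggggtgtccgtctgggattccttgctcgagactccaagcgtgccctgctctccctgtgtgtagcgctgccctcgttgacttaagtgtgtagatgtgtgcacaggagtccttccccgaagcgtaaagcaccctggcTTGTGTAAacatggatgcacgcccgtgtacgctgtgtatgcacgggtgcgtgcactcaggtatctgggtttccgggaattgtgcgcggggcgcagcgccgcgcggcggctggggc
Of 32851 promoter windows of this length, 36.8% held TTNNGNAA, so a match on its own is frequent, and it describes letters only. TPM are per gene and do not say which start was used.

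The Hdac7 level in the 3 uninduced libraries was 7.03, 8.80 and 8.59 TPM. It was 2.76, 2.92 and 2.45 TPM at 1h, 1.92, 2.75 and 3.11 TPM at 12h, and 0.85, 1.52 and 1.47 TPM at 48h. Every induced library lay below every uninduced library, and the 48h libraries lay below all others. The mean fell from 8.14 ± 0.97 TPM (SD, n = 3) at 0h to 2.71 ± 0.24 TPM (SD, n = 3) within 1h, a log2 fold change of -1.55 ± 0.25 (SE; adjusted p = 0.0016, limma). This placed Hdac7 at the 1.36 percentile of all genes tested by log2 fold change at 1h, where few genes were lower. The log2 fold change against 0h was -1.63 ± 0.25 (adjusted p = 0.00053) at 12h and -2.61 ± 0.25 (adjusted p = 6.0e-06) at 48h. Scaling by median of ratios gave values of -2.19, -1.96 and -2.23, all called, so that on this scale nearly the whole difference was present by 1h. The step from 12h to 48h was -0.98 (adjusted p = 0.0098) on the deposited scale and -0.27 (adjusted p = 0.42) after scaling. The exons of Hdac7 overlap those of Slc48a1 on the other strand, and the counting is not stated to use strand, so reads of these genes cannot be told apart where they overlap.

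Hdac9, which shares the MEF2-binding region of the class, had levels of 2.56, 3.99 and 3.04 TPM in the 0h libraries, 5.76, 6.93 and 5.66 TPM in those of 1h, 0.83, 2.13 and 2.33 TPM in those of 12h and 0.69, 0.45 and 0.53 TPM in those of 48h. The 1h libraries were the highest of the 12 and the 48h libraries the lowest, with no overlap between neighbouring time points. At 48h Hdac9 was lower than at 0h by a log2 fold change of -2.32 ± 0.34 (SE; adjusted p = 0.00017), and by -1.97 (adjusted p = 0.00049) after scaling. The value at 1h was 0.93 ± 0.34 (adjusted p = 0.065) on the deposited scale and 0.28 (adjusted p = 0.65) after scaling, past the threshold on neither. On the deposited scale it was called with a pseudocount of 1 (adjusted p = 0.026), with the 6 libraries compared alone (adjusted p = 0.027) or without 12h replicate 1 (adjusted p = 0.015). At 12h the value was -0.92 (adjusted p = 0.062), and -1.24 (adjusted p = 0.015) after scaling. It was also called on the deposited scale without 12h replicate 3 (adjusted p = 0.039), with a pseudocount of 1 or among genes with a mean of at least 1 TPM. The largest single step came between 1h and 12h, at -1.85 ± 0.34 (adjusted p = 0.0027) and -1.53 (adjusted p = 0.0070) after scaling. In that comparison Hdac2 was the other member called lower, and 15.0% of all genes were.

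Hdac4, a class IIa enzyme known from muscle and cartilage, was the least abundant member at 0h, at 1.61, 2.43 and 1.73 TPM. It stood at 4.27, 3.91 and 4.05 TPM at 1h, 2.74, 3.10 and 4.14 TPM at 12h, and 1.21, 2.08 and 1.52 TPM at 48h. The 1h and 12h libraries were all above the uninduced ones, and the 48h libraries overlapped them. On the deposited scale it rose by a log2 fold change of 1.07 ± 0.24 (SE; adjusted p = 0.0097) at 1h and 0.76 ± 0.24 (adjusted p = 0.036) at 12h. After scaling the values were 0.42 (adjusted p = 0.25) and 0.44 (adjusted p = 0.16), so neither call held. On the deposited scale the 12h call also ended without 0h replicate 1 or 3 or 12h replicate 2 or 3. The exons of Hdac4 overlap those of the antisense gene Gm26720.

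Hdac5, a class IIa enzyme known as a signal-responsive repressor in muscle, had the largest standard error of a fold change among the members. Its level was 4.65, 2.32 and 5.04 TPM in the 0h libraries, 3.17, 2.81 and 3.86 TPM in those of 1h, 4.24, 7.85 and 6.60 TPM in those of 12h and 2.41, 3.20 and 4.90 TPM in those of 48h. All 4 time points overlapped except that the 12h libraries lay above the 1h libraries. Against 0h it passed the test at no time point on either scale. The step from 1h to 12h had a log2 fold change of 0.87 ± 0.35 (SE; adjusted p = 0.096) on the deposited scale and 1.18 (adjusted p = 0.029) after scaling. Among the 14 promoter windows of the members that were found in RefSeq, none belonged to Hdac1 or Hdac3. The window of Hdac5 held the only match among them to the MEF2 consensus, which occurred in 2.92% of all windows. It is shown in capitals, 20 bases before the start.
Hdac5 promoter, chr11:102230173-102230422 (minus strand): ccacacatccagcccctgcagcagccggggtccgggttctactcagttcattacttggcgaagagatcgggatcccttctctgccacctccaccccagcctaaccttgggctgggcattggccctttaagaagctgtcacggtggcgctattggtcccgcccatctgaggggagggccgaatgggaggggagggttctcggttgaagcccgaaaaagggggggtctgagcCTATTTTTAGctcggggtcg
A match describes these letters and not the binding of a factor.

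Hdac1, the class I subunit shared by NuRD, SIN3 and CoREST, was the most abundant deacetylase at every time point. Its level was 9.07, 9.50 and 9.33 TPM in the 0h libraries, 21.57, 20.45 and 14.50 TPM in those of 1h, 13.32, 13.00 and 16.23 TPM in those of 12h and 5.63, 7.53 and 8.71 TPM in those of 48h. The 1h and 12h libraries were all above the uninduced libraries and the 48h libraries all below them. The rise had a log2 fold change of 0.99 ± 0.20 (SE; adjusted p = 0.0056) at 1h and 0.60 ± 0.20 (adjusted p = 0.045) at 12h on the deposited scale. After scaling the values were 0.33 (adjusted p = 0.18), 0.26 (adjusted p = 0.20) and, at 48h, 0.04 (adjusted p = 0.87), so Hdac1 was called at no time point on that scale. The 12h call was also lost without any one of 8 libraries (each of 0h and of 12h, 1h replicate 2 or 48h replicate 2), with log2 fold changes between 0.50 and 0.66.

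Hdac2, the close relative of Hdac1 in the same complexes, had another course. Its level was 7.51, 5.94 and 5.83 TPM in the 0h libraries, 6.92, 8.55 and 6.09 TPM in those of 1h, 3.12, 3.20 and 3.73 TPM in those of 12h and 1.06, 1.97 and 1.29 TPM in those of 48h. The 0h and 1h libraries overlapped, the 12h libraries lay below both, and the 48h libraries lay below those. The log2 fold change against 0h was -0.91 ± 0.23 (SE; adjusted p = 0.012) at 12h and -2.12 ± 0.23 (adjusted p = 1.9e-05) at 48h, and -1.24 and -1.73 after scaling, both called. Within libraries, the ratio of Hdac2 to Hdac1 was 0.83, 0.63 and 0.62 before induction and 0.19, 0.26 and 0.15 after 48h.

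Hdac3, the catalytic subunit of NCoR, was at 6.50, 6.48 and 5.89 TPM in the 0h libraries, 11.04, 7.59 and 6.33 TPM in those of 1h, 5.66, 5.28 and 5.36 TPM in those of 12h and 3.02, 2.20 and 3.20 TPM in those of 48h. The 0h and 1h libraries overlapped, the 12h libraries lay just below the 0h ones, and the 48h libraries lay below all others. At the last time point its log2 fold change was -1.15 ± 0.22 (SE; adjusted p = 0.0010), and -0.75 (adjusted p = 0.011) after scaling. At 1h and 12h Hdac3 was not called on either scale, with values of 0.36 and -0.21 on the deposited scale and -0.29 and -0.54 after scaling.

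Summed over the 3 class I genes the level was 22.0 ± 1.02 TPM (SD, n = 3) before induction, 34.3 ± 6.60 TPM after 1h, 23.0 ± 2.06 TPM after 12h and 11.5 ± 1.75 TPM after 48h. Summed over the 4 class IIa genes it was 17.3 ± 1.30 TPM (SD, n = 3) before induction, 16.2 ± 0.34 TPM after 1h, 13.9 ± 3.63 TPM after 12h and 6.94 ± 1.65 TPM after 48h. The class IIa sums of 0h and 1h overlapped, while Hdac7 was lower and Hdac4 higher in each 1h library than in any 0h library. These sums and ranges are on the deposited scale, and sums were not taken after scaling. After scaling the Hdac4 ranges overlapped, reaching up to 2.64 at 0h and starting from 2.56 at 1h. Those of Hdac7 stayed apart, from 6.82 at 0h and up to 1.91 at 1h.

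Mef2d, a broadly expressed member of the MEF2 family, was at 14.21, 15.36 and 12.52 TPM in the 0h libraries, 7.89, 6.66 and 7.75 TPM in those of 1h, 4.33, 4.81 and 5.92 TPM in those of 12h and 2.69, 2.99 and 4.94 TPM in those of 48h. Every uninduced library lay above every induced one, and the 1h libraries lay above those at 12h, whereas the 12h and 48h libraries overlapped. The log2 fold change against 0h was -0.91 ± 0.23 (SE; adjusted p = 0.015) for 1h, -1.47 ± 0.23 (adjusted p = 0.00056) for 12h and -2.002 ± 0.23 (adjusted p = 2.3e-05) for 48h. Once scaled, these values were -1.56, -1.80 and -1.60, all called. On the deposited scale the 1h call did not hold without 0h replicate 2 (adjusted p = 0.053) or 1h replicate 2 (adjusted p = 0.056). The exons of Mef2d overlap those of the antisense gene 1700113A16Rik.

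Mef2a moved the other way. Its level was 4.13, 3.16 and 2.60 TPM in the 0h libraries, 8.34, 8.46 and 5.74 TPM in those of 1h, 7.46, 6.56 and 7.13 TPM in those of 12h and 7.70, 9.56 and 6.40 TPM in those of 48h. Each induced library was above each uninduced library, and the 3 induced time points overlapped. The log2 fold change against 0h was 1.17 ± 0.23 (SE; adjusted p = 0.0043) for 1h, 1.10 ± 0.23 (adjusted p = 0.0037) for 12h and 1.24 ± 0.23 (adjusted p = 0.00085) for 48h. After scaling the values were 0.52 (adjusted p = 0.12), 0.77 (adjusted p = 0.012) and 1.65 (adjusted p = 3.6e-05), so the rise by 1h was not called on that scale and the step from 12h to 48h was, at 0.88 (adjusted p = 0.0073). The exons of Mef2a overlap those of Lysmd4 on the other strand, whose own mean level stayed between 0.42 and 0.88 TPM.

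The 250 bases before the first start of Mef2a and of Mef2d are given because these paralogs moved in opposite directions. Both windows are rich in CpG (21 and 19), and neither held TTNNGNAA or the MEF2 consensus, so nothing is in capitals.
Mef2a promoter, chr7:67372859-67373108 (minus strand): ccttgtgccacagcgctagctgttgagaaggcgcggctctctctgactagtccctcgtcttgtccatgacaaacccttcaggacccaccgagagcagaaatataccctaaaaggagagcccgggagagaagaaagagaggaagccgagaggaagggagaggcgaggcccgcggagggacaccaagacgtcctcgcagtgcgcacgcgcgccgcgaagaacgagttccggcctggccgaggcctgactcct
Mef2d promoter, chr3:88142122-88142371 (plus strand): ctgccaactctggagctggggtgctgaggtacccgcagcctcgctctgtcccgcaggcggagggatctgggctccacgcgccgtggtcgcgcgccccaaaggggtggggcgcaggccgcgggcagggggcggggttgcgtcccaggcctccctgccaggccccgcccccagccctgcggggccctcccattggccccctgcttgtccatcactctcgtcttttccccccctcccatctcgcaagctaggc
The Mef2a window lies in a captured fragment whose contacts are described further on.

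Mef2c, the family member tied to early B cells, was at 17.27, 20.64 and 15.52 TPM in the 0h libraries, 18.68, 22.66 and 16.94 TPM in those of 1h, 11.50, 12.31 and 16.32 TPM in those of 12h and 10.54, 18.79 and 14.20 TPM in those of 48h. The libraries of each induced time overlapped with those of 0h, and no comparison was called on the deposited scale, with log2 fold changes against 0h of 0.12, -0.42 and -0.32. After scaling Mef2c was lower at 12h by a log2 fold change of -0.75 (adjusted p = 0.0076) and higher at 48h than at 12h by 0.84 (adjusted p = 0.0054), with 0.09 (adjusted p = 0.73) between 48h and 0h. The dip at 12h therefore rests on the scale used.

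**Figure D2:**
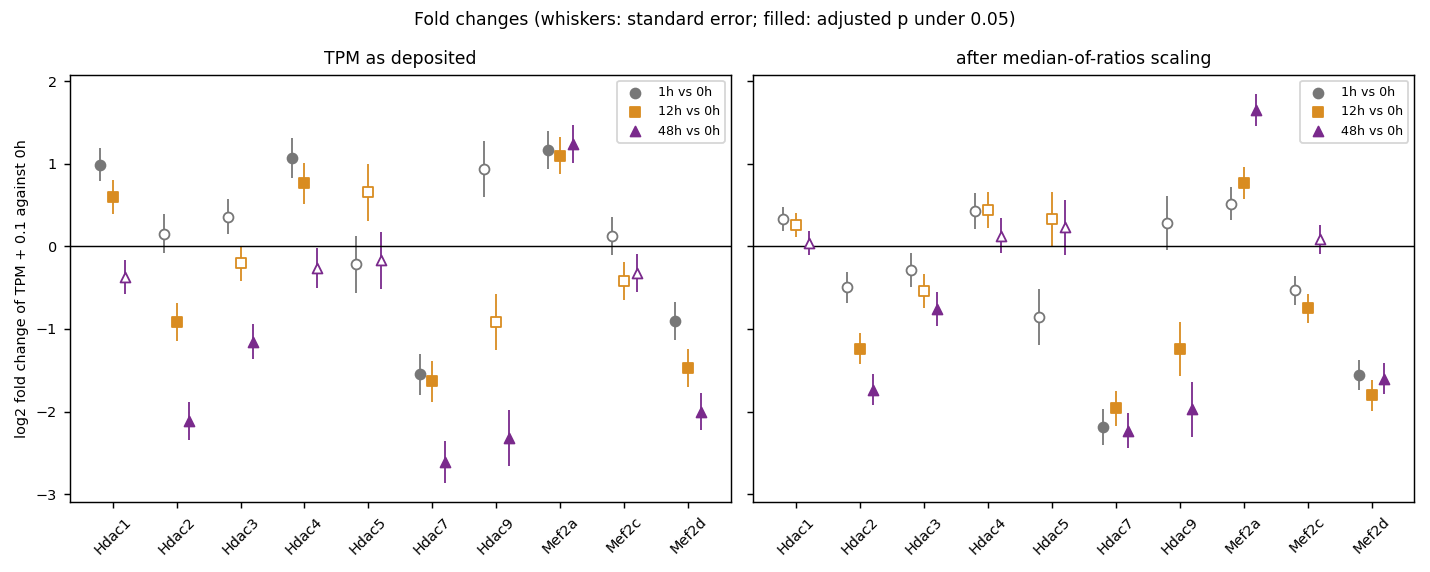
Log2 fold change of TPM + 0.1 against 0h (vertical axis) for the 10 genes at 1h, 12h and 48h, on the deposited TPM (left) and after median-of-ratios scaling (right); whiskers are standard errors and filled symbols have an adjusted p under 0.05. Hdac7 and Mef2d were called lower at all 3 times in both panels, and Hdac1 and Hdac4 were called in the left panel only.

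Between successive time points, 0 members were called higher and 2 lower from 1h to 12h (6.98% and 15.0% of all genes tested), and 0 higher and 6 lower from 12h to 48h (4.10% and 31.7%). Those 6 were Hdac1, Hdac2, Hdac3, Hdac4, Hdac7 and Hdac9, with log2 fold changes between -1.40 and -0.95. The median of all genes was itself -0.62 in that comparison. After scaling 0 members were lower from 12h to 48h (11.9% of all genes) and 2, Mef2a and Mef2c, were higher (10.5%). From 1h to 12h after scaling, 1 member was higher, Hdac5, and 2 were lower (11.3% and 8.77% of all genes).

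Ratios of TPM within a library do not depend on the scale between libraries. The ratio of Mef2a to Mef2d was 0.29, 0.21 and 0.21 in the 0h libraries, 1.06, 1.27 and 0.74 in those of 1h, 1.72, 1.36 and 1.20 in those of 12h, and 2.86, 3.20 and 1.30 in those of 48h. It was highest in 2 of the 48h libraries, and the third overlapped with 12h. Every induced library exceeded every uninduced one. The ratio of Mef2a to Mef2c was between 0.15 and 0.24 at 0h and between 0.45 and 0.73 at 48h. Within class IIa the ratio of Hdac4 to Hdac7 went from 0.24 ± 0.04 (SD, n = 3) at 0h to 1.51 ± 0.16 at 1h and was 1.30 ± 0.15 at 12h and 1.28 ± 0.21 at 48h. The ratio of Hdac7 to Hdac1 was 0.87 ± 0.09 (SD, n = 3) at 0h and 0.15 ± 0.02 at 1h, and stayed between 0.14 and 0.21 in all libraries of 12h and 48h.

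**Figure D3:**
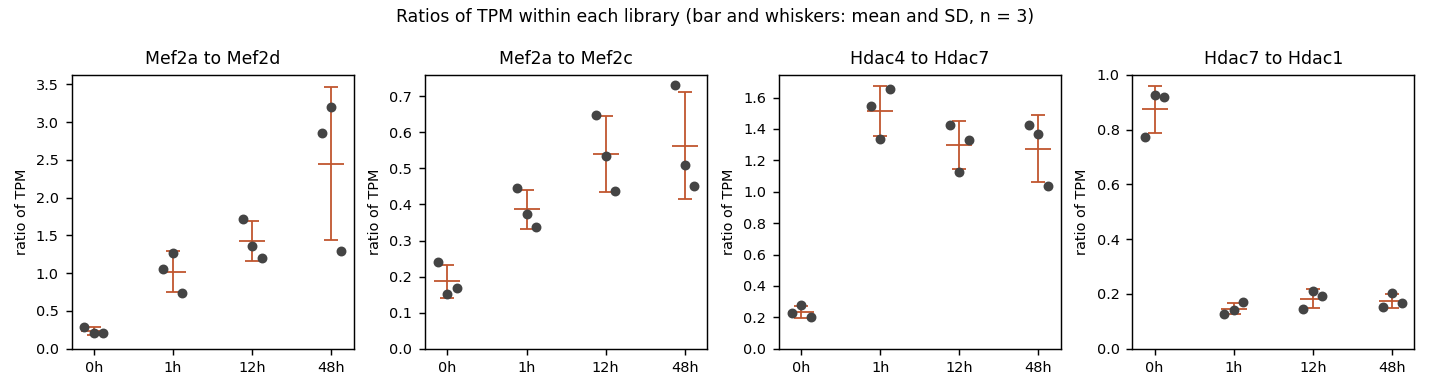
Ratio of TPM between pairs of genes within each library (vertical axes from 0) at 0h, 1h, 12h and 48h; points are libraries, and bars with whiskers are means with SD (n = 3). The mean ratio of Mef2a to Mef2d was 0.23 at 0h and 2.45 at 48h, while the ratio of Hdac4 to Hdac7 changed mainly between 0h and 1h.

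By mean TPM the order at 0h was Mef2c (17.8), Mef2d (14.03), Hdac1 (9.30), Hdac7 (8.14), Hdac2 (6.43), Hdac3 (6.29), Hdac5 (4.003), Mef2a (3.30), Hdac9 (3.20) and Hdac4 (1.92). The ranges of Hdac7 and Hdac2, of Hdac2 and Hdac3, of Hdac5 and Mef2a, and of Mef2a and Hdac9 overlapped, and the other neighbours in this order did not. At 48h the order was Mef2c (14.5), Mef2a (7.89), Hdac1 (7.29), Mef2d (3.54), Hdac5 (3.50), Hdac3 (2.81), Hdac4 (1.60), Hdac2 (1.44), Hdac7 (1.28) and Hdac9 (0.56). There the ranges separated between Mef2c and Mef2a, between Hdac1 and Mef2d, between Hdac3 and Hdac4, and between Hdac7 and Hdac9, and overlapped for the other neighbours. Between these time points Hdac7 moved down past Hdac4 and Mef2a moved up past Mef2d.

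In the PCHi-C lists, the fragment with the distal start sites of Hdac7 (chr15:97839715-97854512, 14798 bases) holds 4 of the 11 annotated start sites. Its ends are HindIII sites, as were the starts of all 26 fragments in contact with it. Both junctions are shown on the plus strand with the cut site in capitals.
Left end, chr15:97839703-97839726: ggaacagaagaAAGCTTcttgtct
Right end, chr15:97854501-97854524: tatcatcggcaAAGCTTtttcatt
The fragment had 14 contacts in the 0h list, 15 in that of 1h, 18 in that of 12h and 20 in that of 48h. The median over the 18175 captured fragments that appear in any list was 4 at each time. The number listed did not fall from 0h to 48h. The later lists give no score, so an equal cutoff in all 4 lists could not be checked here. TPM are per gene and this fragment holds 4 of the 11 start sites, so a relation of contacts to RNA was not tested. Each list pools its replicates, so these numbers have no error and were not tested. At 0h the CHiCAGO scores (which weigh each contact against the background at its distance) lay between 5.13 and 10.35, just above the minimum of 5 of the list, and 2 reached 10. A second Hdac7 fragment further inside the gene (chr15:97813908-97819794) had 1, 0, 2 and 1 contacts.

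The contacts of the Hdac7 promoter fell into 3 regions. The region downstream of the gene (chr15:97664302-97796380) reaches from the 3′ end of Hdac7 over Slc48a1, Rapgef3 and Endou to Rpap3, and had 9, 9, 11 and 13 contacts in order of time. The region upstream (chr15:97937264-97971497), around Tmem106c, had 4, 5, 6 and 7. A distant region at Asb8 and Ccdc184 (chr15:98153087-98169417) had 1, 1, 1 and 0. Of the 26 fragments listed at any time, 7 were in all 4 lists. These were 4 fragments over Endou, the promoter fragments of Slc48a1 and Tmem106c, and a fragment beside the latter. Of the 14 contacts at 0h, 8 were listed again after 1h, 10 after 12h and 11 after 48h, which is 57.1%, 71.4% and 78.6%. The median over the 5420 captured fragments with at least 10 contacts at 0h was 60.9%, 55.0% and 58.1%. Within 10 kb, 12 of the 14 recurred at each time. Neighbouring fragments share their surroundings and are not independent contacts.

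**Figure D4:**
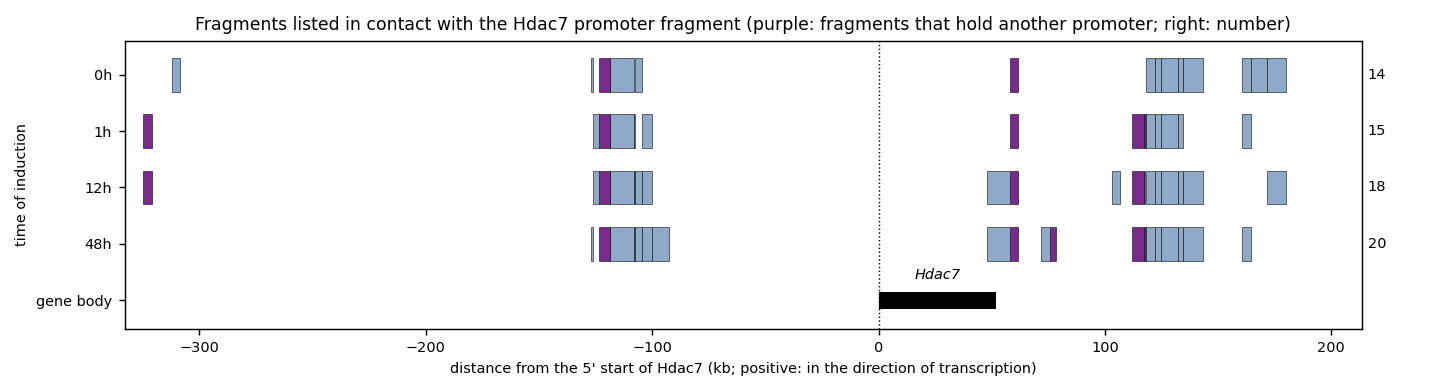
Fragments listed in contact with the Hdac7 promoter fragment at each time point (rows), by distance in kb from the distal start of Hdac7 (horizontal axis, positive in the direction of transcription); purple fragments hold another promoter, and the number at the right counts the contacts. The 14 to 20 contacts stay in the same upstream and downstream regions at all 4 times, and the most distant upstream region is absent from the 48h row.

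The promoters in contact with Hdac7 belonged to genes of several functions. Those of Slc48a1, a heme transporter, and Tmem106c were listed at all 4 times, that of Endou at 1h, 12h and 48h, that of Asb8 and Ccdc184 at 1h and 12h, and that of Rapgef3, an exchange factor activated by cyclic AMP, at 48h. None of the 4 of these genes with a mean of at least 0.1 TPM was called against 0h at any time on either scale. Slc48a1 had a mean of 3.22 ± 0.99 TPM (SD, n = 3) at 0h and 4.21 ± 1.19 TPM at 48h (log2 fold change 0.39, adjusted p = 0.42). Tmem106c had 1.65 ± 0.58 and 1.39 ± 0.20 TPM (log2 fold change -0.20, adjusted p = 0.68). Asb8 had 2.097 ± 0.19 and 2.04 ± 0.43 TPM (log2 fold change -0.05, adjusted p = 0.91). Rapgef3 had at most a mean of 0.37 TPM, at 12h, and Endou and Ccdc184 were below the level tested.

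The Mef2a promoter fragment (chr7:67371061-67375837) had the most contacts of the members and the largest increase, with 19 before induction, 26 after 1h, 35 after 12h and 55 after 48h. The number at 48h was 2.89 times that at 0h. Among the 5420 fragments with at least 10 contacts at 0h, the median ratio was 0.85, and 0.904% had a ratio as high as Mef2a or higher. For Hdac7 the ratio was 1.43, and 13.9% of the fragments were at or above it. The 5420 fragments were chosen by their 0h number, which favours ratios under 1. The whole lists held 138769 contacts at 0h and 144072 at 48h. Mef2a is described here as the member with the largest increase, so these shares are not tests. Most of the Mef2a increase lay upstream of the gene, in a stretch of 234.1 kb (chr7:67418971-67653049) that begins in intergenic sequence and runs through Lrrc28 to the shared promoter fragment of Lrrc28 and Ttc23. It held 12, 21, 27 and 46 contacts, whereas the region at the 3′ end of Mef2a (chr7:67218679-67290442) held 7, 5, 8 and 9. Of the 19 contacts at 0h, 17 were listed again at 48h. Of 62 fragments in all, 7 were in every list. At 0h the scores lay between 5.10 and 10.57. Lrrc28, over which these contacts lie, was lower at 48h (2.07 ± 0.36 TPM at 0h and 0.74 ± 0.29 TPM at 48h, log2 fold change -1.42, adjusted p = 0.0015, and -1.06 after scaling, adjusted p = 0.012), whereas Mef2a was higher. Lrrc28 was named after its values were seen.

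**Figure D5:**
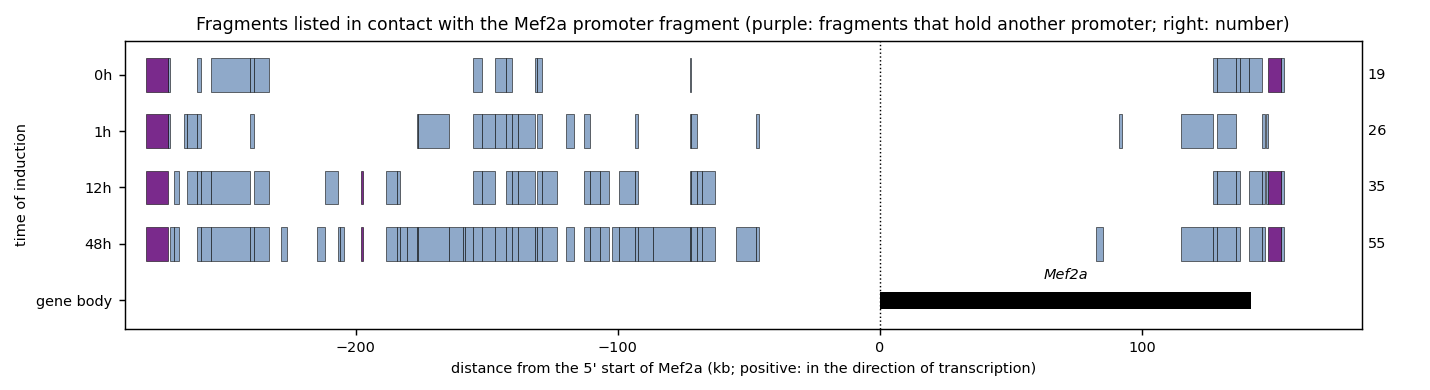
Fragments listed in contact with the Mef2a promoter fragment at each time point (rows), by distance in kb from the start of Mef2a (horizontal axis, positive in the direction of transcription); purple fragments hold another promoter, and the number at the right counts the contacts. The contacts rise from 19 to 55, mostly within 276 kb upstream of the gene.

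The other members had at most 15 contacts at any time and no common direction. Over all their listed promoter fragments, Hdac1 had 15, 9, 7 and 13 contacts in order of time, Hdac3 had 3, 4, 11 and 1, and Hdac5 had 8, 4, 4 and 5. Hdac4, listed only at an inner start, had 0, 1, 1 and 9. Hdac9, likewise listed only at inner starts, had 5, 1, 3 and 2. Mef2d, which fell with Hdac7 in RNA, had 3, 3, 2 and 2, and Hdac2 had 2, 3, 1 and 4. Mef2c was listed only at its most distal start, in a fragment of 547 bases with 1 contact, at 48h. No captured fragment in the lists held the other start sites of Hdac4, Hdac9 and Mef2c. Fragments were taken from the lists, so a captured promoter without a listed contact cannot be told from one not captured.

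Over the 12 libraries, the log2(TPM + 0.1) values of Hdac7 and Mef2d had a Pearson correlation of 0.94, the highest among members, followed by Hdac1 and Hdac4 (0.92) and Hdac2 and Hdac9 (0.90). The lowest values were between Mef2a and Hdac7 (-0.83) and between Mef2a and Mef2d (-0.80). These describe libraries that share 4 time points and a common scale. Among 9330 genes with a mean of at least 1 TPM, the 5 most like Hdac7 were Zfpm1 (0.96), Tbc1d10c (0.96), Rnf157 (0.95), Chst3 (0.95) and Uaca (0.95). Zfpm1, which encodes the GATA cofactor FOG1, had means of 10.5, 4.71, 2.97 and 1.45 TPM at the 4 time points. The 5 most like Mef2c were Zeb1 (0.90), Gm42428 (0.88), Ccdc163 (0.87), Mepce (0.87) and Wdr24 (0.86), of which Zeb1, a zinc finger repressor, had means of 3.84, 4.41, 2.57 and 2.48 TPM.

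The partners of the class I enzymes were read at 48h against 0h, where 15.9% of all genes tested were higher and 27.2% lower (24.5% and 22.0% after scaling). Of 11 NuRD genes, 1 was higher and 8 were lower, with a median log2 fold change of -1.22 against -0.18 over all genes, and 2 were higher and 8 lower after scaling (median -0.81 against 0.07). Rbbp7, a histone-binding subunit, was at 20.48, 19.37 and 16.71 TPM at 0h and at 3.03, 3.88 and 2.60 TPM at 48h, a log2 fold change of -2.55 ± 0.21 (SE; adjusted p = 1.8e-06), and -2.15 after scaling. Mta1, a scaffold of the complex, fell by 1.90 on the log2 scale (adjusted p = 4.2e-06), and its value was -1.504 after scaling. The ranges of both genes did not overlap between these time points. In SIN3, 2 of 13 genes were higher and 4 lower, close to the shares of all genes, with Arid4a at 1.28 (adjusted p = 0.00091; 1.69 after scaling) and Brms1l at -1.59 (adjusted p = 0.00079; -1.20 after scaling). In CoREST, 1 of 10 was higher and 3 were lower, also close to those shares, with Phf21a, the histone-reading subunit, at 1.36 (adjusted p = 0.00093; 1.77 after scaling) and Gse1 at -1.76 (adjusted p = 8.7e-05; -1.38 after scaling). In NCoR, 0 of 5 were higher and 3 lower, against the 15.9% and 27.2% above, with Gps2 at -1.03 (adjusted p = 0.0084, and 0.071 after scaling). After scaling the numbers higher and lower were 2 and 2 for SIN3, 2 and 2 for CoREST, and 2 and 1 for NCoR.

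Of 16 tested among 19 kinases and 14-3-3 genes that act on class IIa enzymes, 2 were higher and 4 lower at 48h, near the 15.9% and 27.2% of all genes, and 6 and 3 after scaling (24.5% and 22.0%). Prkd2, the protein kinase D gene of lymphocytes, had a mean of 8.41 ± 1.62 TPM (SD, n = 3) at 0h and 1.84 ± 0.20 TPM at 48h, a log2 fold change of -2.12 ± 0.25 (SE; adjusted p = 2.8e-05), and -1.73 after scaling. Its libraries at 48h lay below all those at 0h. Ywhae, a 14-3-3 gene, fell by 1.17 on the log2 scale (adjusted p = 0.0011), and its value was -0.76 after scaling (adjusted p = 0.015). Of 14 genes that regulate MEF2 factors, 3 were higher and 5 lower (5 and 4 after scaling), again near the shares of all genes, with Carm1, an arginine methyltransferase and MEF2 coactivator, at -1.64 (adjusted p = 0.00031; -1.25 after scaling) and Map2k6, a kinase upstream of p38, at -2.36 (adjusted p = 0.00032; -2.35 after scaling). Map2k6 was at no more than 0.60 TPM in any 0h library, so its fold change depends on the value added before taking logs.

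Among the 5 other deacetylase and MEF2 genes, 0 were higher and 2 lower at 48h, where 15.9% and 27.2% of all genes were. Hdac10, a polyamine deacetylase, was at 1.85, 1.86 and 2.11 TPM at 0h and at 0.37, 0.26 and 0.61 TPM at 48h, with 5.46, 4.94 and 4.59 TPM at 1h in between. By the end its log2 fold change was -2.05 (adjusted p = 5.6e-05), and -1.72 after scaling. Hdac6, a tubulin deacetylase, had -1.19 (adjusted p = 0.014), and -0.84 (adjusted p = 0.065) after scaling, when Hdac10 was the 1 gene of the list called lower. Of 7 sirtuins, 2 were higher and 1 lower (3 and 1 after scaling), beside 15.9% and 27.2% of all genes (24.5% and 22.0% after scaling). Sirt5, a mitochondrial enzyme that removes succinyl groups, rose from 1.41, 1.33 and 1.06 TPM at 0h to 4.36, 6.50 and 5.27 TPM at 48h, a log2 fold change of 1.99 ± 0.22 (SE; adjusted p = 1.8e-05) and 2.41 after scaling, while Sirt4 had -1.14 (adjusted p = 0.0093), and -0.81 (adjusted p = 0.034) after scaling.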

How the data were processed

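RNA-seq was analysed for 12 libraries and PCHi-C for 4 merged lists. Per the labels and the study's methods, the authors merged technical replicates, trimmed reads with Trim Galore 0.6.2, mapped them to mm10 with HISAT2 2.1.0 and deposited TPM (RSEM). TPM are not counts and hold no depth. For PCHi-C the authors used HiCUP and CHiCAGO and merged 2 replicates. Each contact of the deposited 0h list has a CHiCAGO score. The later lists, as deposited, give whole numbers in place of it, of a unit that the files do not name, and these were not used. Hi-C samples were not analysed here.

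Genes with a mean of at least 0.1 TPM entered a linear model (R 4.3.3, limma 3.58.1: lmFit, contrasts, eBayes with trend) on log2(TPM + 0.1), all 12 libraries in 1 model, with Benjamini-Hochberg adjustment over 16415 genes and calls at an adjusted p under 0.05. The fit was tested on simulated data with independent noise and no change of scale between time points. That simulation does not cover the shifts in scale described above. Biological replicates are numbered in the labels, with no statement of separate cultures, so p-values measure the spread between these samples. Contacts were counted over captured fragments that appear in any of the lists and hold a GENCODE M21 start site of the gene. Promoter windows came from RefSeq (GRCm38.p6) and were checked against the genome. Python 3.11.15, numpy 2.4.6 and pandas 2.3.3 were used.

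The genes named are the 10 members, the 5 genes most correlated with Hdac7 and with Mef2c, the 2 genes of each list with the lowest adjusted p at 48h against 0h, and genes in contact with the Hdac7 promoter. A gene that this rule names is not reported here. The members and lists were chosen with earlier results of these data known. Alternatives varied the pseudocount, filter, scaling, libraries, replicate block, trend, fold threshold and contact rules.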

Additional observations from a re-analysis of the deposited data

How the results depend on the processing

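The calls against 0h of Hdac7, of Mef2d at 12h and 48h, and of Hdac2, Hdac3, Hdac9 and Mef2a at 48h were kept under every alternative run. Mef2d at 1h was lost without 0h replicate 2 or 1h replicate 2 and with a log2 fold change beyond 1, which also ended the Hdac2 call at 12h. The scaling moved most other calls; the cause was not tested. With median-of-ratios scaling the members called were 0 higher at 1h, 1 higher and 5 lower at 12h, 1 higher from 1h to 12h, and 2 higher and 0 lower from 12h to 48h. The shares of all genes on that scale are given above. With TPM rescaled without the 20 most abundant genes they were 0 higher at 1h and 0 higher at 12h (897 and 2652 of all 16415 genes). From 1h to 12h they were 1 higher and 1 lower (1459 and 1154 genes), and from 12h to 48h 0 lower (2330 genes). With no filter 1 was higher at 12h (3257 of 25472 genes). With a log2 fold change beyond 1, 1 was lower at 1h (178 of 16415 genes), 1 higher at 12h (2903) and 3 lower from 12h to 48h (3910). Uncalled log2 fold changes changed sign under median-of-ratios scaling and, where 2 values are given, under rescaling. These were Hdac2 (-0.50 and -0.33), Hdac3 (-0.29 and -0.13) and Mef2c (-0.53 and -0.37) at 1h, and Hdac1 (0.037), Hdac4 (0.13 and 0.064), Hdac5 (0.23 and 0.16) and Mef2c (0.086 and 0.013) at 48h. From 1h to 12h they were Hdac4 (0.011), Hdac7 (0.23 and 0.19) and Mef2a (0.25 and 0.20), and from 12h to 48h Mef2d (0.20 and 0.010).

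Leaving out each library in turn gave 3 to 4 members higher and 1 to 2 lower at 1h, 1 to 3 and 3 to 4 at 12h, 1 to 1 and 5 to 5 at 48h, 0 to 0 and 2 to 3 from 1h to 12h, and 0 to 0 and 6 to 8 from 12h to 48h. Of all 16415 genes, the same runs called 2340 to 4151 higher and 163 to 260 lower at 1h. At 12h they called 2683 to 3719 higher and 918 to 1388 lower, and at 48h 2204 to 2642 and 3902 to 4540. The genes called lower were 1552 to 2684 from 1h to 12h and 3826 to 5250 from 12h to 48h. The fewest members higher at 12h came without 0h replicate 1 or 3 or 12h replicate 2 or 3. In each of these runs both Hdac1 and Hdac4 lost their calls. Log2 fold changes around 0 changed sign for Hdac5 at 48h (-0.51 to 0.061), for Hdac7 (-0.22 to 0.11) and Mef2a (-0.25 to 0.024) from 1h to 12h, and for Mef2a (-0.0040 to 0.28) and Mef2c (-0.11 to 0.30) from 12h to 48h. With the replicate number as a block, the Hdac1 call at 12h was lost (0.60, adjusted p = 0.065), and no other member's call changed. With only the 6 libraries compared, the calls from 12h to 48h of Hdac7 (adjusted p = 0.068) and Hdac9 (adjusted p = 0.070) and that of Hdac4 at 12h were lost. A correlation of deviations over 0.1 was seen in 7 of 18 same-numbered pairs and in 1 of 36 differently numbered pairs. The median correlation was 0.07 for same-numbered and -0.05 for other pairs on the deposited scale, so libraries of the same number may share an origin. The labels name none, so the main fit was not paired. The fit with replicate number as a block, given above, allows for it. Both Hdac7 promoter fragments together had 15 contacts at 0h, of which 2 had a score of at least 10. With 3 libraries a group and depth left out of the fit, small differences were not detectable.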
